A study of Sus scrofa with 8 samples.

Results

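Osteoclast effector genes are the genes with which osteoclasts fuse, seal themselves to bone and dissolve it. A list of 10 such genes was looked up by symbol in RNA-seq data from the condylar cartilage of the pig temporomandibular joint, and 9 of them were measured among 18898 genes: ACP5, ATP6V0D2, CLCN7, DCSTAMP, OCSTAMP, OSCAR, SIGLEC15, CALCR and NFATC1. The remaining gene, CTSK, was not analysed here. The osteoarthritis group held 4 libraries and the control group 4 libraries, all from wild-type (WT) pigs. The surgical protocol, worded alike for both groups in the labels, is a 5.0 mm perforation punched into the disc of the joint, with the disc attachments left uncut; it is taken here as the treatment of the osteoarthritis group. Both groups were labelled as condylar cartilage cells and as biological replicates, but the labels tie no library to an animal, so a p-value here measures only the spread among samples, which may in part be technical. The time after surgery, the age of the animals and what was done to the control joints are not given in the sources used here. RNA was extracted from pieces of tissue, and in such bulk samples fewer cells of a type and less RNA per cell cannot be told apart.

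Osteoclasts are large cells with many nuclei that form when precursors of the monocyte line fuse under the influence of the cytokines CSF1 and RANKL. They seal off a patch of mineralised matrix, pump acid into it to dissolve the mineral, and release proteases that digest the collagen. At the condyle of the jaw they are known for resorbing calcified cartilage and the bone beneath it, at the border where cartilage is replaced by bone. The transcription factor NFATC1 switches on most of the other genes of the list.

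The genes lie on 7 pig chromosomes (RefSeq annotation of Sscrofa11.1, the build named in the submitters' processing notes). ACP5 (ENSSSCG00000032282) is at chr2:70206159-70209855, and CLCN7 (ENSSSCG00000008024) is at chr3:40397807-40420960. Chromosome 4 holds both DCSTAMP (ENSSSCG00000006043), at chr4:32912320-32928323, and ATP6V0D2 (ENSSSCG00000006138), at chr4:50694188-50749373. OCSTAMP (ENSSSCG00000007448) is at chr17:48703937-48711690. Among the receptor genes, OSCAR (ENSSSCG00000003259) is at chr6:56021434-56029398, SIGLEC15 (ENSSSCG00000004493) at chr1:95475108-95492675 and CALCR (ENSSSCG00000015320) at chr9:73279874-73403516. NFATC1 (ENSSSCG00000004856) is at chr1:145940099-146002897. All 9 are protein-coding genes, and each span covers the whole gene with its introns.

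Transcripts of the osteoclast effector genes were present in all 4 osteoarthritis libraries and in control replicates 2 and 4, and all but NFATC1 were lowest in control replicates 1 and 3. None of the 9 differed between the groups beyond the spread of the libraries. In edgeR's quasi-likelihood test, 0 of 9 passed an adjusted p of 0.05, beside 0.618% of the 16020 genes tested (0.225% up and 0.393% down in osteoarthritis). None of the 9 reached an unadjusted p under 0.05 (0 of 9, beside 15.2% of all genes). DESeq2 also called 0 of 9 (5.49% of the genes to which it gave an adjusted p). The log2 fold changes of osteoarthritis over control were above 0 for 6 members and below 0 for 3, with a median of 0.20, beside a median of 0.0049 over all genes tested. Adjusted p-values ran from 0.54 to 0.98. The groups overlapped in every member on the scale used for these levels, CPM (counts relative to library size after TMM scaling), while 11.2% of all genes tested did not overlap (5.69% higher and 5.52% lower in osteoarthritis).

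Libraries held 11354200 to 25412939 estimated counts, so that 1 CPM corresponded to 6.35 to 37.4 counts. The tissue label was checked against chondrocyte genes: COL2A1, the main collagen of cartilage, was at 12816 to 102379 CPM in osteoarthritis and at 5012 to 11919 CPM in controls. All 12 chondrocyte genes had log2 fold changes above 0, with a median of 2.98 and 10 at an unadjusted p under 0.05. All 6 genes of hypertrophic chondrocytes did too, with a median of 2.73 and 6 at that p, beside 15.2% of all genes tested. None of these 18 was called by edgeR, and the part of this difference in the members' results was not tested. By Pearson's r on log2 CPM, control replicates 1 and 3 were the most alike of all pairs within a group over all genes tested (r = 0.974). They differed by far more than counting noise (chi-square of 31.6 per gene). By that measure osteoarthritis replicates 1 and 2 were slightly closer, at 30.2, and control replicates 2 and 4 were the farthest apart, at 453. The scaling factors were uneven, from 0.424 in control replicate 2 to 1.55 in osteoarthritis replicate 3. Protein-coding genes took 87.8% to 90.5% of the counts in osteoarthritis and 49.7% to 73.9% in controls, and mitochondrial, haemoglobin and rRNA genes took 0.784% to 3.22% in osteoarthritis and 5.52% to 20.8% in controls. Control replicate 2, the highest library for CLCN7, SIGLEC15 and NFATC1, was the extreme in both shares, and the part of this in the results was not tested.

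**Figure D1:**
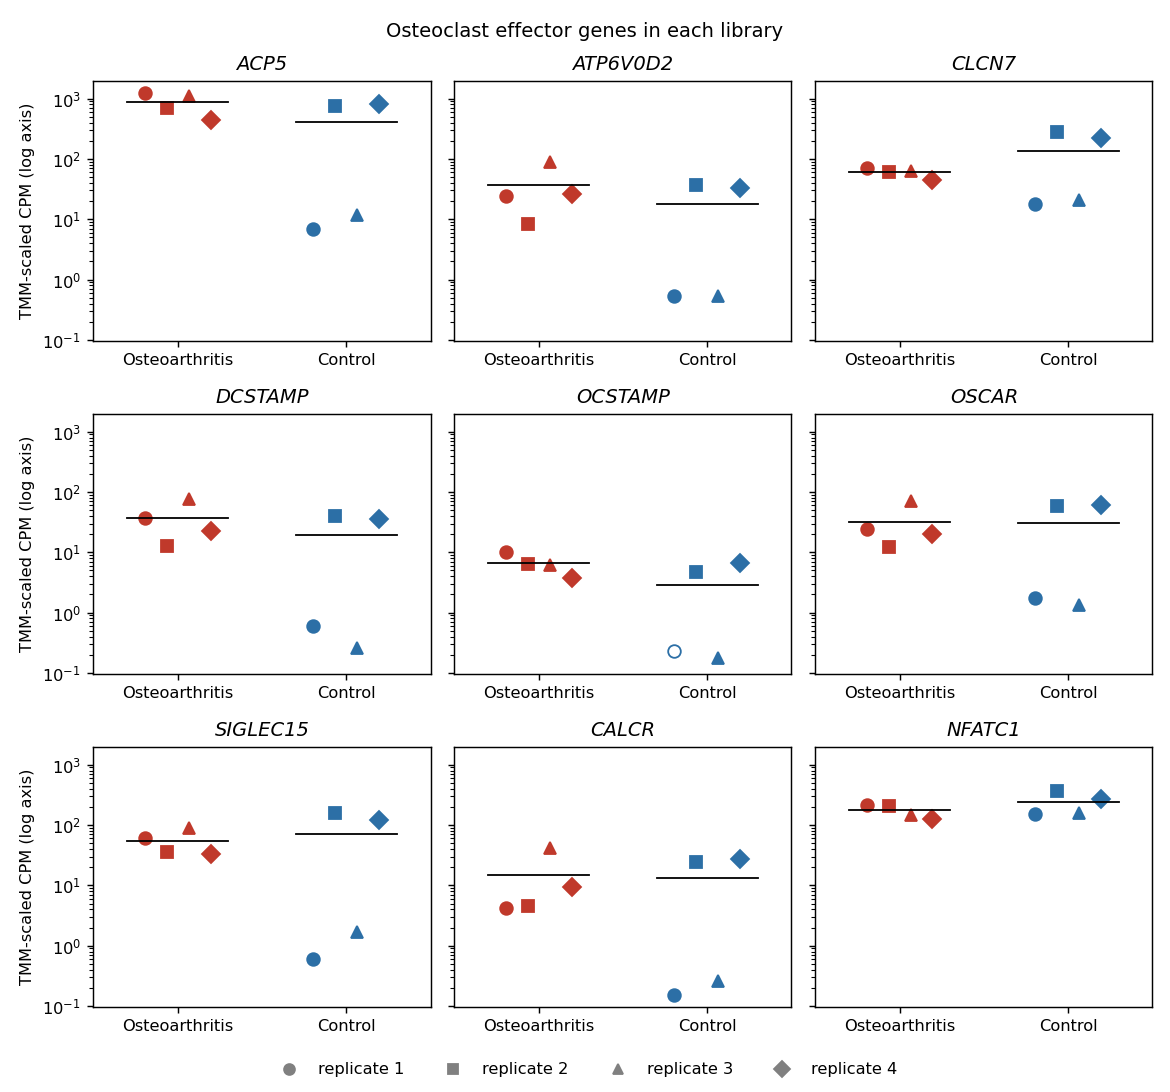
Level of each osteoclast effector gene in each library, as TMM-scaled CPM on a log axis, with osteoarthritis on the left and control on the right of each panel. Symbols give the replicate number, bars the group mean, and the open circle a count of 0, drawn at the level of 3 counts; control replicates 1 and 3 lie below the other 6 libraries in every panel except that of NFATC1.

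ACP5 encodes tartrate-resistant acid phosphatase, the enzyme whose staining marks osteoclasts in tissue sections. It was at 1247, 706, 1086 and 448 CPM in osteoarthritis replicates 1 to 4, against 6.96, 768, 11.6 and 821 CPM in control replicates 1 to 4. Control replicates 2 and 4 fell inside the osteoarthritis range, and control replicates 1 and 3 were lower than every other library. The means were 872 ± 362 CPM in osteoarthritis and 402 ± 454 CPM in controls (SD, n = 4 each), a log2 fold change of 1.12 ± 1.26 (± SE, edgeR adjusted p = 0.72). The highest control was 118 times the lowest, and the highest osteoarthritis library 2.78 times the lowest.

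ATP6V0D2 and CLCN7 serve acid secretion: the first is a subunit of the proton pump that osteoclasts use in large amounts, and the second is the chloride-proton exchanger of the ruffled border, the membrane that faces the bone. ATP6V0D2 was at 24.2, 8.38, 88.7 and 26.7 CPM in osteoarthritis replicates 1 to 4, against 0.535, 36.9, 0.528 and 32.8 CPM in control replicates 1 to 4 (1.07 ± 1.23, edgeR adjusted p = 0.72). Its highest and lowest osteoarthritis libraries, replicates 3 and 2, differed 10.6-fold, and both lay above control replicates 1 and 3. CLCN7 was at 71.2, 61.9, 63.7 and 45.4 CPM in osteoarthritis replicates 1 to 4, against 18.1, 283, 20.8 and 223 CPM in control replicates 1 to 4 (-1.17 ± 0.82, edgeR adjusted p = 0.54). All 4 osteoarthritis libraries lay between the low and the high pair of controls, within 1.57-fold of each other.

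DCSTAMP and OCSTAMP encode membrane proteins that precursors need in order to fuse into multinucleated osteoclasts. DCSTAMP was at 37.7, 12.6, 76.2 and 22.6 CPM in osteoarthritis replicates 1 to 4, against 0.611, 40.6, 0.264 and 35.9 CPM in control replicates 1 to 4 (0.96 ± 1.23, edgeR adjusted p = 0.76). In DCSTAMP, control replicates 2 and 4 lay inside the osteoarthritis range. OCSTAMP was at 10.1, 6.35, 6.12 and 3.74 CPM in osteoarthritis replicates 1 to 4, against 0, 4.72, 0.176 and 6.67 CPM in control replicates 1 to 4 (1.18 ± 1.05, edgeR adjusted p = 0.64). Behind the low control values of OCSTAMP stood 0 and 2 counts, and behind those of DCSTAMP 8 and 3 counts, in replicates 1 and 3. A count of 0 in control replicate 1 allows up to 3 counts, or 0.229 CPM.

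The receptor genes of the list were the least separated between the groups. OSCAR, a collagen receptor that costimulates osteoclast formation, was at 23.98, 12.4, 70.4 and 20.01 CPM in osteoarthritis replicates 1 to 4, against 1.76, 57.8, 1.32 and 60.1 CPM in control replicates 1 to 4 (0.07 ± 1.11, edgeR adjusted p = 0.98). In OSCAR, control replicates 2 and 4 were exceeded by osteoarthritis replicate 3 alone. SIGLEC15, a sialic acid receptor that promotes osteoclast maturation, was at 61.3, 36.0, 90.6 and 32.7 CPM in osteoarthritis replicates 1 to 4, against 0.611, 159, 1.67 and 123 CPM in control replicates 1 to 4 (-0.37 ± 1.28, edgeR adjusted p = 0.93). CALCR, the receptor through which calcitonin halts resorption, was at 4.18, 4.48, 41.8 and 9.48 CPM in osteoarthritis replicates 1 to 4, against 0.153, 24.7, 0.264 and 27.4 CPM in control replicates 1 to 4 (0.20 ± 1.32, edgeR adjusted p = 0.96). For CALCR, osteoarthritis replicate 3 was the highest library of all, and the other 3 osteoarthritis libraries were below control replicates 2 and 4.

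NFATC1 stood apart from the other 8 members. It was at 217, 207, 148 and 128 CPM in osteoarthritis replicates 1 to 4, against 153, 368, 161 and 271 CPM in control replicates 1 to 4 (-0.44 ± 0.34, edgeR adjusted p = 0.57). Control replicates 1 and 3 lay within the osteoarthritis range, and control replicates 2 and 4 were the 2 highest libraries. The highest control was 2.41 times the lowest. NFATC1 is also made by other cell types, T cells and endothelium among them.

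The spread within the controls was thus the main feature of the list. Among the controls, the highest library was at least 10 times the lowest for 8 of 9 members, NFATC1 being the exception, beside 5.63% of all genes tested (values under 3 counts were set to 3 counts). Among the osteoarthritis libraries this held for 1 of 9, ATP6V0D2, beside 2.08% of all genes. The coefficient of variation of CPM was 101% to 115% in controls and 18.0% to 120% in osteoarthritis for those 8. It was lowest in osteoarthritis for CLCN7, and highest there for CALCR, the 1 of these 8 members more variable in osteoarthritis than in controls. The same 8 members were lower in control replicates 1 and 3 than in each of the other 6 libraries, as were 15.9% of all genes tested. The threshold of 10 and this pair were chosen after the values had been seen, and these counts are descriptions.

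The 9 members together came to 1697, 1055, 1672 and 737 CPM in osteoarthritis replicates 1 to 4, against 181, 1742, 198 and 1602 CPM in control replicates 1 to 4. Control replicates 2 and 4 were thus at the upper end of the osteoarthritis range or above it, and control replicates 1 and 3 far under it. Without ACP5, the remaining 8 summed to 450, 349, 585 and 289 CPM in osteoarthritis, against 174, 974, 186 and 780 CPM in controls. Control replicates 2 and 4 were then above all 4 osteoarthritis libraries. Much of their sums was NFATC1, which other cell types also make (368 and 271 CPM), and CLCN7 (283 and 223 CPM). In osteoarthritis replicate 3 these were at 148 and 63.7 CPM. DCSTAMP, ATP6V0D2, OSCAR and CALCR were instead highest in osteoarthritis replicate 3.

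Since control replicates 1 and 3 stood apart, the comparison was repeated without them, an alternative chosen after seeing the data that leaves 4 osteoarthritis and 2 control libraries. These libraries were left out because the members were low in them, which by itself moves the fold changes of such genes towards lower values in osteoarthritis, so the values below are a description and no test. CLCN7 was then at -2.02 ± 0.26 (log2 fold change ± SE), against -1.17 ± 0.82 with all 8 libraries. ACP5 was then at 0.17 ± 0.45, DCSTAMP at 0.01 ± 0.62, OCSTAMP at 0.22 ± 0.41 and ATP6V0D2 at 0.14 ± 0.79, each below its SE in size. SIGLEC15 was at -1.31 ± 0.41, NFATC1 at -0.83 ± 0.31, OSCAR at -0.84 ± 0.61 and CALCR at -0.74 ± 0.90. Leaving out any 1 library gave no call for any member.

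Ratios of 2 members within a library do not depend on how libraries are scaled, and some of them separated the groups although the levels did not. Of the 36 pairs of members, 10 had a ratio of counts (after adding 0.5 to each) without overlap between the groups, 27.8%, beside 10.8% of all pairs of genes tested. ACP5 was the numerator in 4 of these, and CLCN7 the denominator in 4. ACP5 had 17.5, 11.4, 17.0 and 9.88 counts for each count of CLCN7 in osteoarthritis replicates 1 to 4, against 0.385, 2.72, 0.560 and 3.69 in control replicates 1 to 4. Here control replicates 2 and 4, whose ACP5 level lay inside the osteoarthritis range, still had lower ratios than any osteoarthritis library.

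ACP5 over SIGLEC15, over OSCAR and over NFATC1 was likewise lower in all 4 controls, whereas ACP5 over CALCR overlapped, at 296, 156, 26.0 and 47.2 in osteoarthritis replicates 1 to 4, against 36.6, 30.9, 37.9 and 29.9 in control replicates 1 to 4. For each count of SIGLEC15 there were 20.3, 19.6, 11.99 and 13.7 counts of ACP5 in osteoarthritis, against 10.8, 4.81, 6.79 and 6.65 in controls. For each count of OSCAR there were 51.9, 56.6, 15.4 and 22.4 in osteoarthritis, against 3.89, 13.3, 8.55 and 13.7 in controls. For each count of NFATC1, which other cells also make, there were 5.74, 3.41, 7.35 and 3.49 in osteoarthritis, against 0.0458, 2.09, 0.0722 and 3.03 in controls. The gaps between the groups were narrow for these 3 ratios, with 11.99 against 10.8, 15.4 against 13.7 and 3.41 against 3.03 at the nearest libraries.

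The remaining pairs without overlap were DCSTAMP, OCSTAMP and SIGLEC15 over CLCN7, DCSTAMP and ATP6V0D2 over OSCAR, and OCSTAMP over NFATC1, each higher in osteoarthritis. DCSTAMP over CLCN7 was at 0.204 or more in osteoarthritis and at 0.161 or less in controls, and DCSTAMP over OSCAR at 1.01 or more in osteoarthritis and at 0.703 or less in controls. SIGLEC15 over CLCN7 barely separated, at 0.582 or more in osteoarthritis and 0.564 or less in controls, as did ATP6V0D2 over OSCAR, at 0.675 or more in osteoarthritis and 0.638 or less in controls. OCSTAMP over CLCN7 was at 0.0827 or more in osteoarthritis and 0.0300 or less in controls, and OCSTAMP over NFATC1 at 0.0292 or more in osteoarthritis and 0.0247 or less in controls. Set against each of the other 16019 genes tested, ACP5 had a ratio higher in all osteoarthritis libraries for 8.20% and lower in all of them for 0.0125%, and CLCN7 for 0.200% and 2.17%. Among the members OCSTAMP had the largest share of higher ratios, 10.4%, and NFATC1 the largest share of lower ratios, 7.15%. Over all pairs of genes the share without overlap, in either direction, was 10.8%. The pairs of members named here were not chosen before the values were seen, and no test is given.

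**Figure D2:**
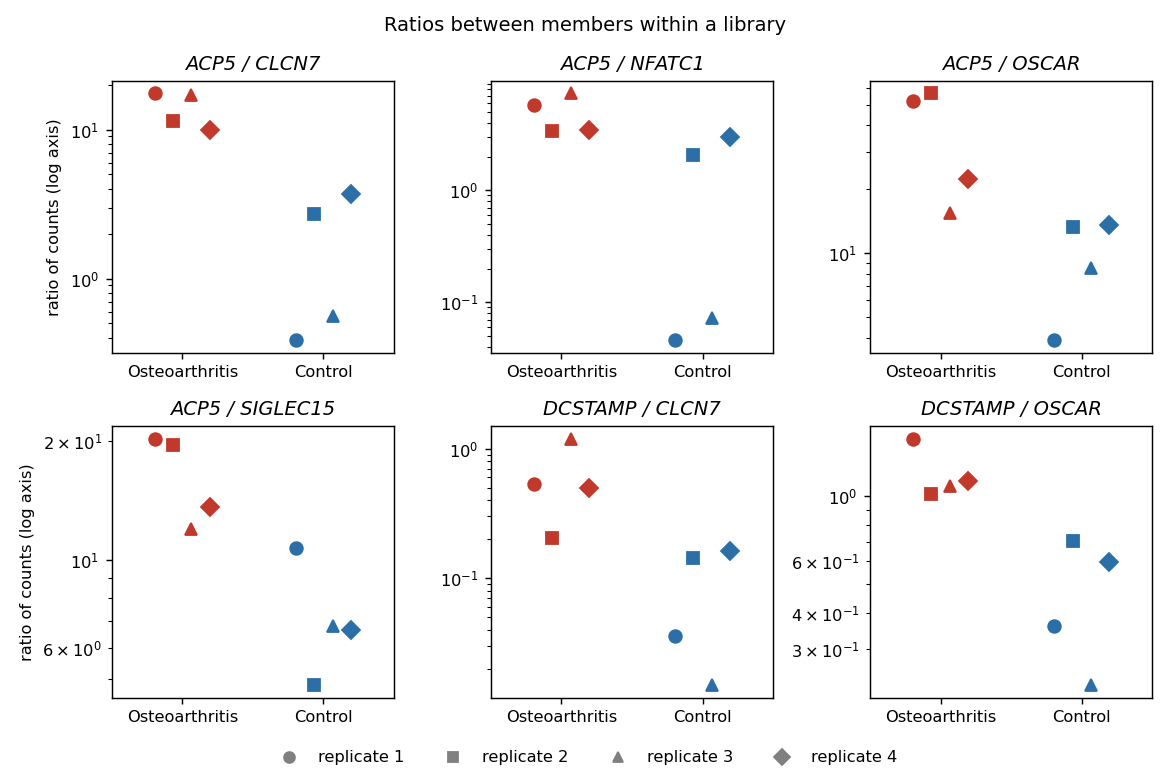
Ratios of estimated counts between 2 members within each library, on log axes that differ between panels, with osteoarthritis on the left and control on the right. Symbols give the replicate number, and in each of the 6 pairs shown all 4 osteoarthritis libraries lie above all 4 controls, as for ACP5 over CLCN7 (9.88 to 17.5 in osteoarthritis and 0.385 to 3.69 in controls).

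Levels of different genes were compared on the deposited TPM scale, which corrects for transcript length. ACP5 led all 4 osteoarthritis libraries with 849 to 2362 TPM, or 80.1% to 86.9% of the summed TPM of the 9 members. It led control replicates 2 and 4 with 118 and 552 TPM, or 64.4% and 71.3% of that sum. In control replicates 1 and 3 NFATC1 was the highest member, at 28.8 TPM in both, and ACP5 made up 10.05% and 13.7%. NFATC1 was second in osteoarthritis replicates 1, 2 and 4, at 84.1 to 117 TPM, while ATP6V0D2 was second in osteoarthritis replicate 3, at 134 TPM beside 121 TPM for NFATC1.

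CALCR or OCSTAMP was the lowest member in every library. CALCR was the lowest in osteoarthritis replicates 1 and 2 and in control replicate 3, and OCSTAMP in the other 5. In median TPM over the osteoarthritis libraries, NFATC1 (114 TPM), CLCN7 (34.1 TPM), ATP6V0D2 (29.2 TPM), SIGLEC15 (24.4 TPM), DCSTAMP (16.3 TPM), OCSTAMP (10.4 TPM), OSCAR (9.67 TPM) and CALCR (4.76 TPM) followed ACP5. From CLCN7 to CALCR, each gene's range over the osteoarthritis libraries overlapped that of the next. The effective length used for DCSTAMP varied from 2289 to 4347 bases between libraries and that of OSCAR from 3035 to 5018 bases, so their TPM values also carry that estimate.

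On the deposited TPM scale the groups looked different from CPM. For ACP5, OCSTAMP and NFATC1 the lowest osteoarthritis library was above the highest control, with NFATC1 at 84.1 to 121 TPM in osteoarthritis and 27.3 to 82.3 TPM in controls. However, 70.7% of all genes tested showed the same separation in TPM. Short non-coding RNA genes took 32.0% to 40.3% of all TPM in osteoarthritis and 53.0% to 63.0% in controls. The part of this in the separation on the TPM scale was not tested. On the log2(TPM + 0.1) scale the median of all genes was at 1.83, and limma called all 9 members together with 86.6% of all genes tested (88.1% with log2(TPM + 1)). Relative to that median ACP5 was at 3.42, CALCR at 1.25, CLCN7 at -0.09 and NFATC1 at -0.30; with log2(TPM + 1), whose median was at 1.33, CLCN7 was at 0.28 and NFATC1 at 0.18. With library size as the only scaling of the counts, the median of all genes was at 0.65 and no member was called by edgeR. Relative to that median ACP5 was at 1.25, NFATC1 at -0.39, SIGLEC15 at -0.08 and CLCN7 at -0.98.

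**Figure D3:**
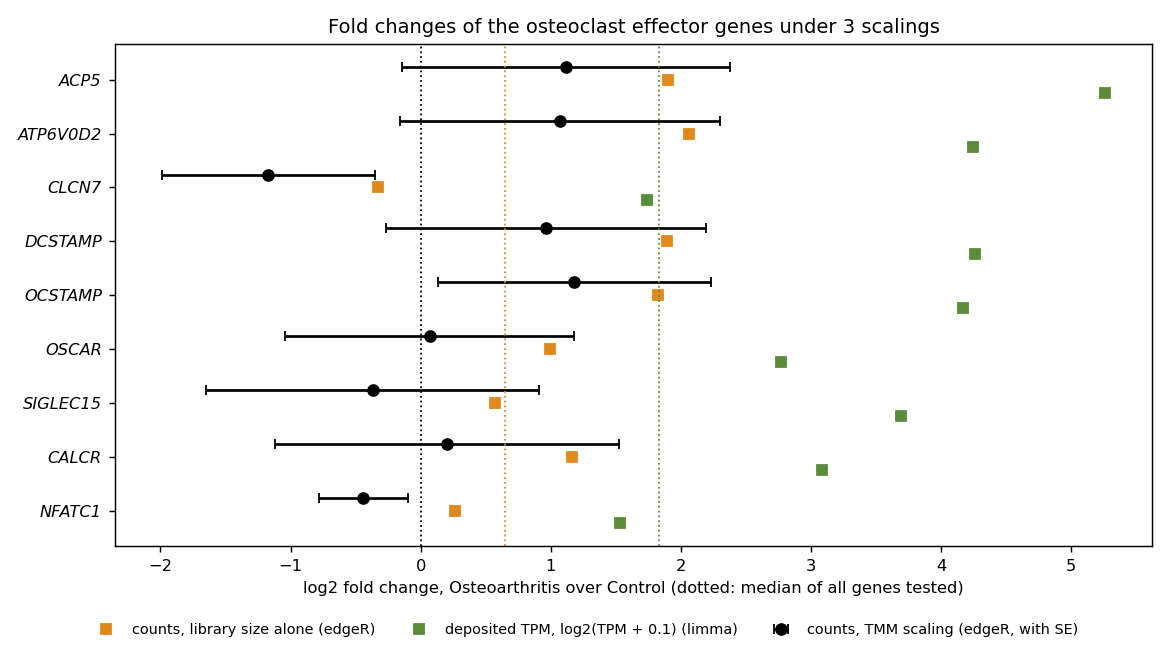
Log2 fold changes of osteoarthritis over control for the 9 members under 3 scalings: counts with TMM scaling (black, with SE), counts scaled by library size alone (orange), and deposited TPM on the log2(TPM + 0.1) scale (green). Dotted lines mark the median of all genes tested under each, at 0.0049, 0.65 and 1.83, and under these 3 scalings CLCN7 and NFATC1 lie below their dotted line (both are above it with log2(TPM + 1)), and ACP5, ATP6V0D2, DCSTAMP, OCSTAMP, OSCAR and CALCR above it.

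Further genes of osteoclast formation and function were taken from 7 lists. Of 89 tested genes in these lists, edgeR called 0. At an unadjusted p under 0.05 there were 9 higher and 5 lower, beside 7.52% and 7.65% of all genes tested. DESeq2 called 5 of them (ATP6V0E1, OSTM1, CTSH, RELB and PTH1R, described below), beside 5.49% of all genes. Their median log2 fold change was 0.16, with 55 above 0. In control replicates 1 and 3, 53 of the 89 were lower than in each of the other 6 libraries, beside 15.9% of all genes tested.

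Among 22 tested genes of acid secretion, 3 reached an unadjusted p under 0.05, beside 15.2% of all genes tested. All 3 were higher in osteoarthritis, and the list median was 0.29. ATP6V0E1, a small subunit of the proton pump, was at 43.8 ± 10.7 CPM in osteoarthritis and 18.3 ± 8.001 CPM in controls without overlap (1.26 ± 0.33, edgeR adjusted p = 0.13). OSTM1, the partner protein that CLCN7 needs for its stability, was at 24.2 ± 9.32 CPM in osteoarthritis and 10.4 ± 4.30 CPM in controls, also without overlap (1.23 ± 0.36, edgeR adjusted p = 0.17). ATP6AP2, an accessory subunit of the pump, was at 1.05 ± 0.41 (edgeR adjusted p = 0.28). SLC4A2, the anion exchanger that brings chloride into the osteoclast, was at -0.89 ± 0.47 (edgeR adjusted p = 0.41).

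TCIRG1 and PLEKHM1, chosen after their values were seen, followed the pattern of CLCN7. TCIRG1, the pump subunit of the ruffled border, was at 106, 98.1, 119 and 62.6 CPM in osteoarthritis replicates 1 to 4, against 26.8, 353, 28.2 and 258 CPM in control replicates 1 to 4 (-0.79 ± 0.78, edgeR adjusted p = 0.68). PLEKHM1, a lysosomal adaptor protein, was at 102, 77.7, 163 and 70.7 CPM in osteoarthritis, against 23.4, 384, 23.0 and 260 CPM in controls (-0.74 ± 0.85, edgeR adjusted p = 0.73). In both genes all 4 osteoarthritis libraries lay between the low and the high pair of controls, as for CLCN7.

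Of 13 tested genes for resorption enzymes and lysosomal proteins, 4 reached an unadjusted p under 0.05, beside 15.2% of all genes tested. All 4 were higher in osteoarthritis, and the list median was 0.31. CTSH, a lysosomal cysteine protease, was at 60.4 ± 11.9 CPM in osteoarthritis and 24.3 ± 9.04 CPM in controls without overlap (1.31 ± 0.28, edgeR adjusted p = 0.079; called by DESeq2 with an adjusted p of 0.0017). MMP14, a collagenase of the cell membrane, was at 0.80 ± 0.31, LAMP2, a lysosomal membrane protein, at 0.83 ± 0.36, and CTSB, a further cathepsin, at 0.49 ± 0.22 (edgeR adjusted p of 0.28, 0.33 and 0.33). MMP9, a gelatinase abundant in osteoclasts and chosen after its values were seen, was at 1462, 2025, 863 and 801 CPM in osteoarthritis replicates 1 to 4, against 2.98, 558, 6.25 and 958 CPM in control replicates 1 to 4 (1.76 ± 1.41, edgeR adjusted p = 0.60). Control replicate 4 alone lay inside the osteoarthritis range, whereas for ACP5 control replicates 2 and 4 both did, and controls 1 and 3 were far below in both genes.

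In the list of receptors and signalling proteins, the median was 0.27. An unadjusted p under 0.05 was reached by 1 of 11 tested genes, beside 15.2% of all genes tested. That gene was TRAF6, the adaptor of the receptor RANK, at 16.9 ± 3.49 CPM in osteoarthritis and 11.8 ± 1.88 CPM in controls without overlap (0.52 ± 0.21, edgeR adjusted p = 0.29). RANK itself (TNFRSF11A, chosen after its values were seen) was at 25.4, 16.0, 83.3 and 28.4 CPM in osteoarthritis replicates 1 to 4, against 2.60, 68.7, 2.29 and 54.5 CPM in control replicates 1 to 4 (0.27 ± 1.03, edgeR adjusted p = 0.93). Osteoarthritis replicate 3 was the highest library for RANK, as for 4 of the 9 members, and controls 1 and 3 were the lowest, as for 8 of the 9.

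Of 17 tested transcription factors, 4 reached an unadjusted p under 0.05, beside 15.2% of all genes tested. All 4 were lower in osteoarthritis, and the list median was -0.31. RELB, a subunit of the non-canonical NF-kB pathway that RANK activates, was at 2.96 ± 0.520 CPM in osteoarthritis and 7.10 ± 1.75 CPM in controls without overlap (-1.25 ± 0.25, edgeR adjusted p = 0.071; called by DESeq2 with an adjusted p of 4.3e-04). PPARGC1B, a coactivator of mitochondrial genes in osteoclasts, was at -1.42 ± 0.55, NFATC2, a relative of NFATC1, at -1.57 ± 0.66, and JUN, an AP-1 subunit, at -1.08 ± 0.46 (edgeR adjusted p of 0.27, 0.31 and 0.31). Of 6 tested repressors of osteoclast formation, ID1 alone had an unadjusted p under 0.05, beside 15.2% of all genes tested. ID1 was at -0.87 ± 0.38 (edgeR adjusted p = 0.33), IRF8 at -0.44 ± 0.63 and BCL6 at 0.31 ± 0.37.

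The list for fusion and adhesion had 0 of 14 genes at an unadjusted p under 0.05, beside 15.2% of all genes tested. Its median was 0.29. ITGAV, a chain of the vitronectin receptor by which osteoclasts hold on to bone, was at 236 ± 117 CPM in osteoarthritis and 126 ± 53.0 CPM in controls (0.91 ± 0.41, edgeR adjusted p = 0.34). SIRPA, which takes part in the fusion of myeloid cells, was at -0.31 ± 0.20, and its ligand CD47 at 0.49 ± 0.36 (edgeR adjusted p of 0.50 and 0.56). Of 6 tested genes around RANKL, PTH1R alone had an unadjusted p under 0.05, beside 15.2% of all genes tested. PTH1R was at 1.95 ± 0.47 (edgeR adjusted p = 0.11). It encodes the receptor for parathyroid hormone, and chondrocytes make it too. TNFSF11, which encodes RANKL, was at 4.92, 5.58, 16.7 and 8.49 CPM in osteoarthritis replicates 1 to 4, against 1.45, 5.20, 1.67 and 10.5 CPM in control replicates 1 to 4 (0.92 ± 0.66, edgeR adjusted p = 0.55). TNFRSF11B, which encodes its decoy receptor osteoprotegerin, was at 13.2, 12.9, 7.01 and 14.6 CPM in osteoarthritis, against 27.0, 2.83, 23.9 and 3.53 CPM in controls (-0.27 ± 0.68, edgeR adjusted p = 0.89). Control replicates 1 and 3, lowest in the members, were thus the highest in osteoprotegerin.

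Genes of some other cell types, though not of all, moved with the members across the libraries, and their part in the results was not tested. The genes named from these marker lists were chosen after their values were seen. Of 15 tested macrophage genes, 10 were lower in control replicates 1 and 3 than in all other libraries, beside 15.9% of all genes tested. The summed level of the 17 macrophage genes measured was 129 to 688 CPM in osteoarthritis and 48.5 to 443 CPM in controls, the highest being osteoarthritis replicate 3. No gene of that list was at 0 in all libraries, while MARCO was at 0 in osteoarthritis replicate 2 and control replicates 1 and 3, and LYZ and ADGRE1 at 0 in control replicate 2. CD68, a lysosomal protein of macrophages that osteoclasts also make, was at 23.6, 17.9, 103 and 24.9 CPM in osteoarthritis replicates 1 to 4, against 1.53, 139, 2.02 and 109 CPM in control replicates 1 to 4. C1QB, a complement chain made by tissue macrophages, was at 14.3, 38.5, 125 and 68.8 CPM in osteoarthritis, against 2.98, 19.5, 4.31 and 77.0 CPM in controls. Control replicate 2 was the highest library for CD68, but lay below 3 of the 4 osteoarthritis libraries for C1QB.

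Many bone and blood genes were uneven in a similar way. DMP1, an osteocyte matrix protein, was at 233, 192, 644 and 247 CPM in osteoarthritis replicates 1 to 4, against 5.58, 594, 4.49 and 575 CPM in control replicates 1 to 4. Of 13 osteoblast and osteocyte genes, 10 were lower in control replicates 1 and 3 than in all other libraries, beside 15.9% of all genes. SP7, at 324 and 349 CPM in control replicates 1 and 3, and RUNX2, at 911 and 929 CPM, were not, nor was COL1A1. Unlike DMP1, IBSP and ALPL were higher in every osteoarthritis library than in any control (2.06 ± 1.22 and 2.36 ± 0.85, edgeR adjusted p of 0.46 and 0.25). The 13 summed to 86113 to 139961 CPM in osteoarthritis and 96294 to 165916 CPM in controls, most of it COL1A1, which fibroblasts also make, and none was at 0 in all libraries. The 4 red cell genes measured summed to 15.3 to 226 CPM in osteoarthritis and 0.994 to 1045 CPM in controls, highest in control replicate 4 and next in osteoarthritis replicate 3; their main gene HBB was above 0 in every library. Levels lower in control replicates 1 and 3 than in all other libraries were also found for 5 of 7 endothelial, 4 of 6 hypertrophic chondrocyte and 4 of 12 chondrocyte genes. Such levels were found for 0 of 7 tested fibroblast genes and 0 of 7 tested epithelial genes, beside the same 15.9%. With 7 genes in a list, a count of 0 is too near that share to be read by itself. THY1, a surface protein of fibroblasts, was at 74.9, 186, 51.0 and 156 CPM in osteoarthritis replicates 1 to 4, against 322, 36.4, 356 and 44.0 CPM in control replicates 1 to 4. Control replicates 1 and 3 were thus its highest libraries, as they also were for COL3A1, LUM and FAP. They were not for the rest of the fibroblast list. DCN was highest in osteoarthritis replicate 4 (384 CPM), PDGFRA in osteoarthritis replicate 3 (224 CPM) and COL1A1 in control replicate 4 (158751 CPM). Epithelial genes differed between the groups instead, with 8 of them summing to 3.85 to 7.02 CPM in osteoarthritis and 93.1 to 369 CPM in controls, highest in control replicate 1, and edgeR called 4 of the 7 tested, all lower in osteoarthritis.

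**Figure D4:**
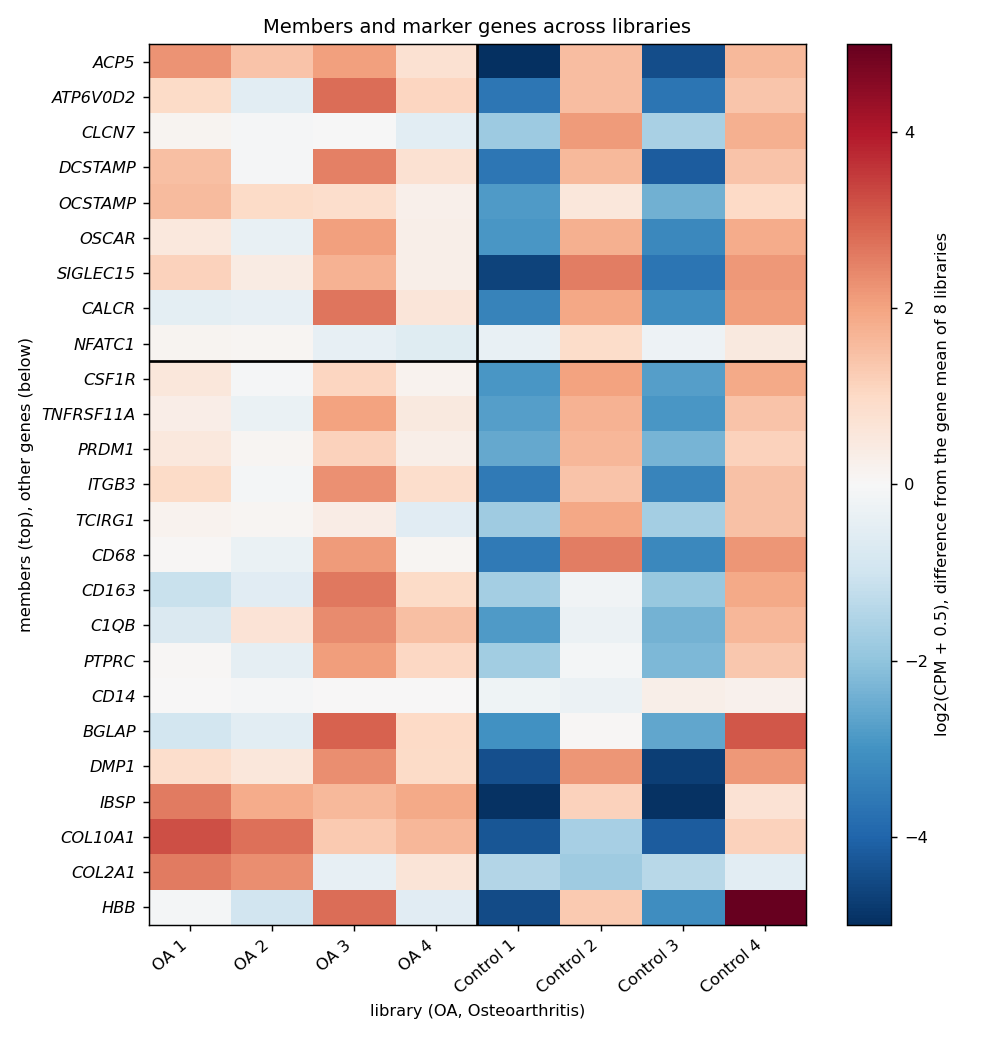
Level of the 9 members (above the line) and of genes of osteoclast formation, macrophages, bone, cartilage and blood (below it) in each library, as log2(CPM + 0.5) minus the gene's mean over the 8 libraries, with colours limited to 5 in either direction and osteoarthritis libraries on the left. The genes below the line were chosen after their values were seen, and control replicates 1 and 3 are blue in all members, palest in NFATC1, and in the osteocyte gene DMP1, while CD14 hardly varies.

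Much of the shared variation of the members came with control replicates 1 and 3, though not for all pairs. Over the 8 libraries, Pearson's r of log2 CPM was 0.86 to 0.99 for the 21 pairs without NFATC1 and CLCN7 (Spearman's rho 0.40 to 0.95), 0.74 to 0.88 for the 8 pairs with CLCN7, and 0.32 to 0.84 for the 8 pairs with NFATC1. Without the 2 libraries farthest from the median, which were control replicates 1 and 3, the 21 pairs had an r of -0.33 to 0.95 over 6 libraries. Their median was 0.60, and 3 of them were below 0, all with OCSTAMP. The pairs among DCSTAMP, ATP6V0D2, OSCAR and CALCR stayed at 0.73 to 0.95. The median r fell from 0.80 to 0.38 for the pairs with CLCN7 and from 0.41 to 0.24 for those with NFATC1. For NFATC1 it rose with CLCN7 (0.84 to 0.91) and with SIGLEC15 (0.55 to 0.71). These values describe points that share their libraries and scaling. The 8 genes most like the mean of the members, out of 11042 with a symbol and a mean log2 CPM of at least 1, were P2RY11, PRDM1, CSF1R, TGFB1, IGFBP4, TIAM1, ARHGEF2 and TP53I11, with an r of 0.990 to 0.996 over 8 libraries and of 0.92 to 0.98 without control replicates 1 and 3. CSF1R, the receptor for CSF1 on cells of the monocyte line, was at 152, 97.2, 217 and 117 CPM in osteoarthritis replicates 1 to 4, against 13.2, 415, 14.9 and 378 CPM in control replicates 1 to 4. PRDM1, a repressor that NFATC1 induces in osteoclasts, was at 18.2, 13.5, 28.9 and 15.5 CPM in osteoarthritis, against 1.76, 41.4, 2.11 and 28.6 CPM in controls. Both were highest in control replicate 2, and neither was called (edgeR adjusted p of 0.86 and 0.99).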

How the data were processed

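The libraries were made with an rRNA depletion kit and a kit that keeps strand, per the labels' protocols. The authors' deposited table holds estimated counts as whole numbers, TPM and effective gene lengths; its 8 log2 TPM columns were left out. Salmon 1.1.0, STAR 2.7.9a, Trim Galore 0.6.7, MultiQC 1.13, StringTie 2.1.0 and, DESeq2 1.26.0 are named in the submitters' processing notes, as is Sscrofa11.1. The tools' roles, the strand setting and the gene filter are not. Deposited TPM equal counts over effective length, rescaled (largest relative difference 2.5e-14). Without a known strand setting, reads of overlapping genes cannot be told apart.

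Genes were kept by filterByExpr, and counts were TMM-scaled and tested in R 4.3.3 by edgeR 4.0.16 (quasi-likelihood, robust), with Benjamini-Hochberg adjustment over 16020 genes and a threshold of 0.05. The SE of a fold change is its size over the square root of F. DESeq2 1.42.0 and limma 3.58.1 were alternatives; all were tested on simulated data. The upper bound given for a count of 0 covers counting error only, whereas each SD and SE includes the spread between libraries.

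Members, lists and alternatives were chosen with earlier results of these data known. Named were all members, up to 4 genes per list by smallest p, and the 8 genes most like the members; any other was picked with its values in view, as the text says. Alternatives were other scalings, filters, tools, the replicate number as a block, and each library left out.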

Additional observations from a re-analysis of the deposited data

Results flagged for a closer look

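Of 74 groups of 4 libraries checked, 5 had a library far from the other 3 by Dixon's test; chance gives about 1 in 20 such groups. Among the members this was CALCR in osteoarthritis, where replicate 3 was at 41.8 CPM and the others at 4.18 to 9.48 CPM. Osteoarthritis replicate 3 was also far above the rest for IL1R1, an interleukin receptor, at 99.7 CPM. JUN was far higher in osteoarthritis replicate 2, at 82.0 CPM, and SIRPA far lower in osteoarthritis replicate 1, at 33.3 CPM. CTSB was far higher in control replicate 4, at 284 CPM.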

How the results depend on the processing

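The count of 0 called members held under 19 of 23 alternatives; it was 7 by limma-voom with sample weights (weights of 3.25 and 3.58 for control replicates 1 and 3, and 0.432 and 0.324 for control replicates 2 and 4), 9 on either TPM scale, and 1 (CLCN7) with controls 1 and 3 left out, a choice made on the members' low values there that supports no call. With each library left out in turn it stayed at 0 to 0. The 99 genes called in all became 3329 by limma-voom with sample weights, 844 by DESeq2, 214 with library size alone, 31 with controls 1 and 3 summed, and 14 to 152 with a library left out. Genes called in the 7 lists, 0 of 89, became 41 by limma-voom with sample weights, 5 by DESeq2, 3 with library size alone, 1 with controls 1 and 3 left out, and 0 to 1 with a library left out. The replicate block gave 1 call over all genes and 0 among the members. Same-numbered libraries did not deviate together from their group means over all genes (correlations of -0.018, -0.083, -0.34 and -0.18). Such correlations cannot show whether these libraries share a batch or an animal. Under the block SIGLEC15 was at 1.81, IRF8 at 0.12 and TNFRSF11B at 0.30.

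Sizes of fold changes depended on the tool. By limma-voom ACP5 was at 3.31 ± 1.89, DCSTAMP at 2.88 ± 1.41 and OCSTAMP at 2.96 ± 1.25, and CLCN7 was nearer 0, at -0.20 ± 0.89. With sample weights ACP5 was at 5.77 ± 1.23, DCSTAMP at 5.35 ± 0.94 and OCSTAMP at 5.23 ± 0.96, while NFATC1 was at -0.01 ± 0.26. Signs turned as follows, without a tested cause. With library size alone NFATC1 was at 0.26, SIGLEC15 at 0.57, IRF8 at 0.25, NFKBIA at 0.52, SIRPA at 0.32, PTHLH at 0.36 and TNFRSF11B at 0.20. By limma-voom SIGLEC15 was at 2.17, IRF8 at 0.14 and TNFRSF11B at 0.28, and with sample weights SIGLEC15 at 4.76, CLCN7 at 1.2, IRF8 at 1.22, NFKBIA at 0.22 and SLC4A2 at 0.07. On the log2(TPM + 0.1) and log2(TPM + 1) scales NFATC1 was at 1.53 and 1.51, SIGLEC15 at 3.69 and 2.66, and CLCN7 at 1.74 and 1.60. With controls 1 and 3 summed CALCR was at -0.16, OSCAR at -0.28 and TNFRSF11B at 0.11, and with both left out CALCR at -0.74, OSCAR at -0.84 and TNFRSF11B at 1.92. With a library left out CALCR ranged from -1.10 to 0.94, OSCAR from -0.68 to 0.70, SIGLEC15 from -0.75 to 0.41, FCER1G from -0.06 to 1.64, IRF8 from -0.74 to 0.22, NFKBIA from -0.44 to 0.05 and TNFRSF11B from -0.63 to 0.21. CALCR and OSCAR turned without control replicate 1 or 3 or osteoarthritis replicate 3, and SIGLEC15 without control replicate 2 or 4.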
